A study of Xenopus laevis with 16 samples.

Results

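The genes described here are 9 regulators of the embryonic skin: tp63, the grainyhead-like genes grhl1, grhl2 and grhl3, the homeobox genes dlx3 and dlx5, and the AP-2 genes tfap2a, tfap2b and tfap2c. They were taken by name, as every row whose name without the .L or .S suffix is one of these 9. Xenopus laevis is allotetraploid and carries an L and an S copy (homeologs) of many genes. Both copies of all 9 genes were listed, which gives 18 of the 45038 rows, and all 18 passed the filter on low counts. RNA was sequenced from animal caps, explants of the blastula ectoderm of Xenopus laevis that form epidermis when left alone. Embryos had received 20 pg of mRNA in the animal hemisphere at the 2-cell stage, and explants cut at the blastula stage were kept with dexamethasone until 6 h or 25 h had passed. The mRNA encoded Ptf1a or Neurog2, which are bHLH transcription factors that drive neurogenesis, or a Ptf1a that carries W224A and W242A (the mutant). In the labels these are ptf1a-GR, GR-neurog2 and ptf1aW224A/W242A-GR. GR is the hormone-binding domain of the glucocorticoid receptor, which holds a fused protein inactive until dexamethasone is added. Control caps also had dexamethasone; which mRNA they had received, if any, the labels do not say. Counts per gene hold no information on whether a transcript of ptf1a or neurog2 was injected or the embryo's own, and they do not tell isoforms of a gene apart. The 8 groups of mRNA and time held 2 libraries each, 16 in all. The labels name no strain or stage at harvest, and do not say whether the 2 libraries of a group came from separate batches of embryos, so p-values measure only the spread between these libraries, which may be technical.

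In the amphibian ectoderm, BMP signalling directs cells to an epidermal fate, and cells in which it is blocked become neural. Dlx3, Dlx5, Tfap2a, Tfap2c, Grhl1 and Tp63 are among the transcription factors that act in this epidermal programme. Several of them, Dlx5 and the AP-2 proteins above all, are also active at the border of the neural plate, where the neural crest arises, and the AP-2 genes are active again in some neurons.

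The 16 libraries held from 31436437 to 228346016 counts. Levels are given as CPM, a copy's share of the counts of its library after TMM scaling, in the order replicate 1 and replicate 2, and means carry the SD (n = 2). A copy was called when its adjusted p was under 0.05, with edgeR's quasi-likelihood test fitted to 30384 genes in all 16 libraries and Benjamini-Hochberg adjustment over all of these genes. As a check of the labels, ptf1a.L stood at 184 and 181 CPM with Ptf1a at 6 h and at 152 and 146 CPM with the mutant, against 0.161 and 0.187 CPM in the controls. In the Neurog2 caps of 6 h neurog2.L stood at 158 and 192 CPM, against 0.257 and 0.373 CPM in the controls. The labelled tissue was read out from 18 keratin and intelectin copies, whose summed level in the controls was 1231 to 1526 CPM at 6 h and 118792 to 135058 CPM at 25 h. At 6 h the replicates differed in 1 direction for most of the regulators: of the 15 copies above 1 CPM, replicate 1 was higher than replicate 2 for 12 with Ptf1a, 13 with Neurog2, 12 with the mutant and 12 in the controls. Over all genes tested with a mean above 1 CPM in the group, replicate 1 was higher for 48.3 to 58.0% at that time.

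Per kilobase of annotated transcript, with L and S added, dlx3 was the most abundant of the 9 genes in the control caps of 25 h. Its level of 319 CPM per kb (309.6 to 329 in the 2 libraries) lay above tfap2c at 235 and grhl1 at 223 CPM per kb. Then came dlx5 at 206, grhl3 at 187, tp63 at 122, tfap2a at 49.7, grhl2 at 11.2 and tfap2b at 0.450 CPM per kb. Among neighbours in this order, the libraries of tfap2c and grhl1 and those of grhl1 and dlx5 overlapped, and all other neighbours were apart. In the control caps of 6 h the order was led by tfap2c at 86.0, tfap2a at 70.4, grhl3 at 53.5 and dlx5 at 44.8 CPM per kb, whose libraries overlapped from each to the next. The lower ranks at 6 h were grhl1 at 31.5, which overlapped dlx5, then dlx3 at 8.09, grhl2 at 1.305, tp63 at 0.350 and tfap2b at 0.0179 CPM per kb, all apart. In the Ptf1a caps of 25 h dlx3 stood at 103 CPM per kb, behind tfap2c at 183, grhl3 at 135 and tfap2a at 108 CPM per kb, and these 4 overlapped from each to the next. The order depends on the length used. Per kilobase of coding sequence, dlx3 had rank 3 and grhl3 rank 5 in the Ptf1a caps of 25 h, while grhl3, tp63 and dlx5 had ranks 4, 5 and 6 in the controls of 25 h, and grhl1 and dlx5 had ranks 4 and 5 in those of 6 h. The length used for tfap2b.L holds no untranslated sequence, since its annotated transcript and coding length are equal.

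**Figure D1:**
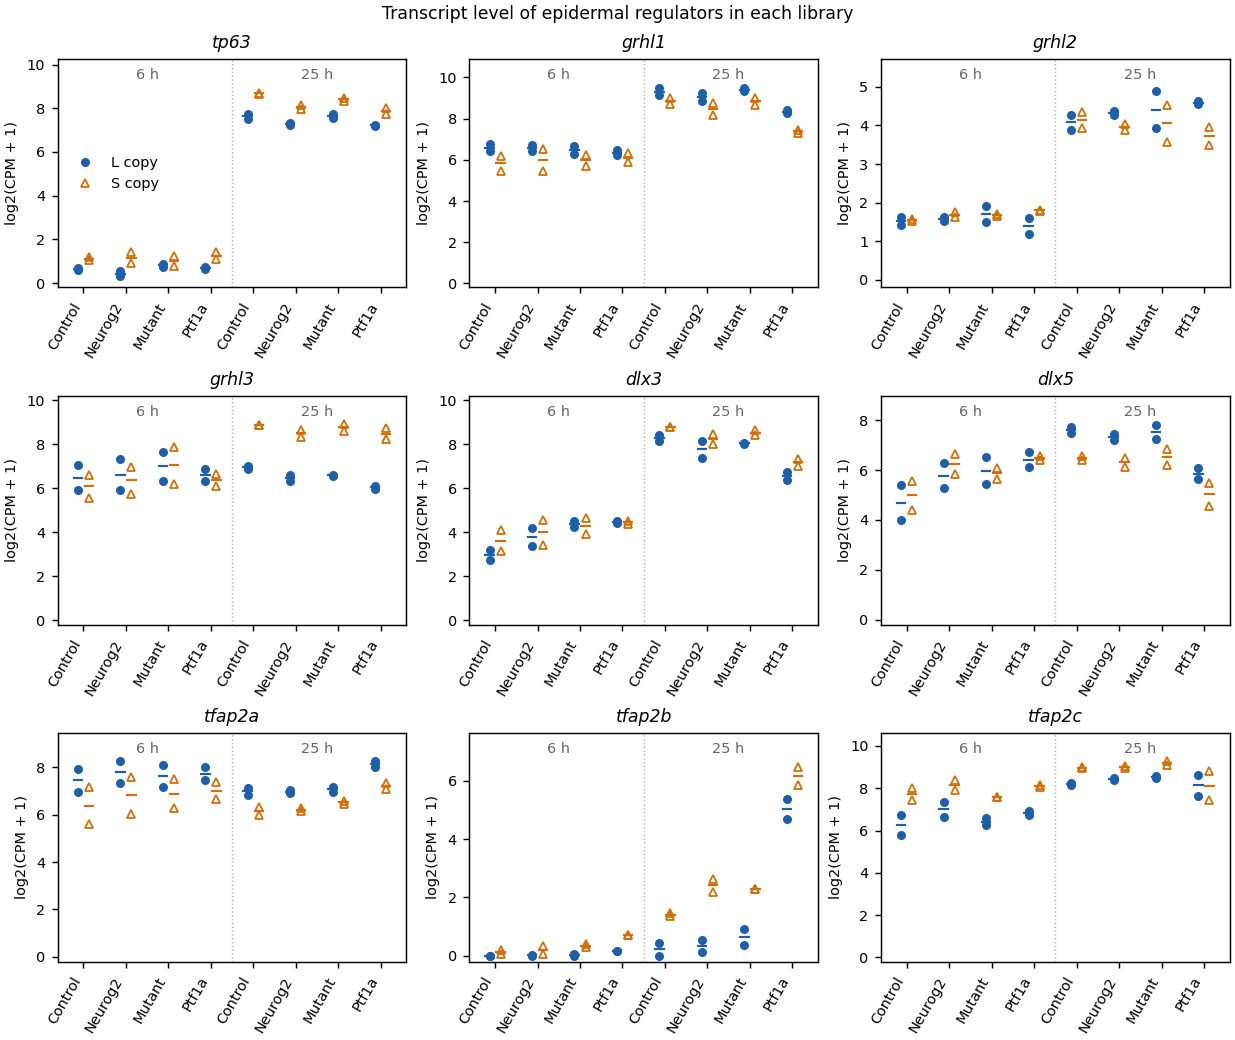
Level of each copy in each library, as log2(CPM + 1), with 1 panel per gene; filled circles are the L copy, open triangles the S copy, short lines the mean of the 2 libraries of a group. The tp63 copies lie near the bottom at 6 h and between 7 and 9 on this scale at 25 h, and tfap2b stands out in the Ptf1a caps of 25 h.

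The comparison with most calls among the 18 copies was that of the control caps over time. Of the 18 copies 15 were higher at 25 h than at 6 h and 0 were lower, where 28.9% of all genes tested were higher and 30.4% lower. The median log2 fold change of the copies was 2.90, against -0.14 over all genes. In these bulk samples fewer cells of a type and less RNA per cell cannot be told apart, here and in every comparison below.

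With Ptf1a at 25 h, 8 of the 18 copies were called against the control of the same time: both copies of dlx3, dlx5 and grhl1 were lower and both copies of tfap2b were higher. The 6 lower copies compare with 8.62% of all genes called lower, and the 2 higher copies with 11.9% called higher. Of these 8 calls 3 were left without replicate 1 of the Ptf1a caps, 3 without replicate 1 of the controls and 5 without replicate 2 of the controls. The median log2 fold change was -0.58 for the copies and 0.08 for all genes. At 6 h 1 copy, dlx3.L, was called higher with Ptf1a and 0 were called lower, where 0.885% of all genes were called higher and 0.0165% lower. Without any 1 of the 4 libraries compared the call of dlx3.L was lost, which left 0. With the libraries' replicate number as a block, tfap2b.S was called as well, which made 2 copies. With the number as a block within each time, the count was 4 at 6 h and 13 at 25 h, and the copies added are named below. All shares of genes called, here and below, are those of the fit without a block. The shares in fits with a block are not given here, so counts from those fits lack a background. Median log2 fold changes at 6 h were 0.36 for the copies and 0.15 for all genes, and the latter was 0.00 with DESeq2 size factors.

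Neurog2 and the mutant gave 0 calls among the 18 copies at either time in the edgeR fit described above, which holds no block. At 6 h 0.250% of all genes were called with Neurog2 and 0.606% with the mutant, in either direction. At 25 h the shares were 3.08% and 0.836%. At an unadjusted p under 0.05, 3 copies passed in the Neurog2 caps and 3 in the mutant caps of 6 h, and 1 in each at 25 h. DESeq2's Wald test called dlx3.L in the mutant caps of 6 h and tfap2b.S in the Neurog2 caps of 25 h, and 0 copies in the other 2 comparisons. With the block within each time, 1 copy was called with Neurog2 at either time, and 3 were called with the mutant at 6 h. With the replicate block dlx3.L was called with the mutant at 6 h (log2 fold change 1.52 ± 0.28, adjusted p = 0.0220).

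**Figure D2:**
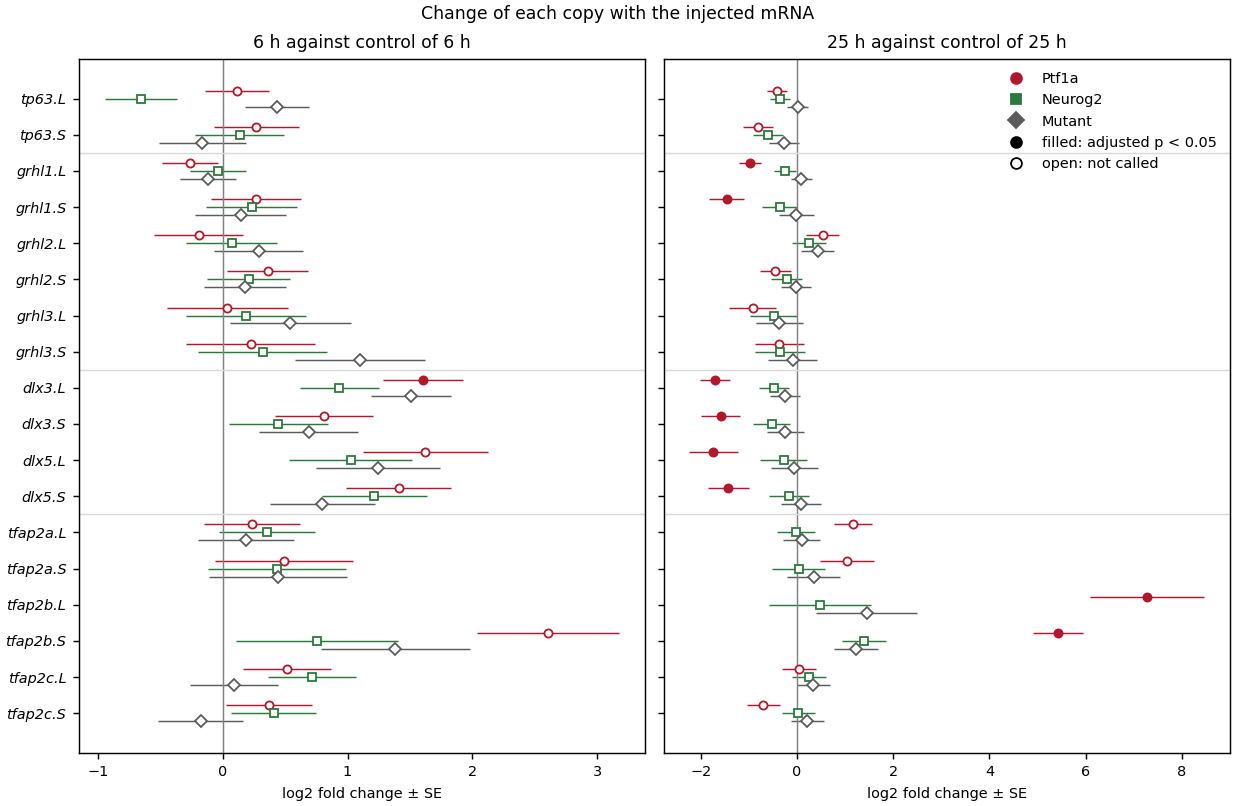
Log2 fold change of each copy against the control of the same time, with its SE as a bar, for Ptf1a (red circles), Neurog2 (green squares) and the mutant (grey diamonds); filled symbols have an adjusted p under 0.05. Both copies of dlx3 and dlx5 lie right of 0 with Ptf1a at 6 h and left of 0 at 25 h; tfap2b.L is left out at 6 h, where its control libraries held no counts.

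Tp63 is a p53-family transcription factor of epidermal progenitors. Its copies lie on chromosome 5L (100162062 to 100205364) and chromosome 5S (84502131 to 84546960) of build 9.1, where tp63.S overlaps 1 other annotated record, so that reads of the 2 may not be told apart. At 6 h tp63.L stood at 0.611 and 0.513 CPM in the controls, 0.450 and 0.240 CPM with Neurog2, 0.856 and 0.671 CPM with the mutant and 0.549 and 0.683 CPM with Ptf1a. The tp63.S copy at that time stood at 1.09 and 1.26 CPM in the controls, 1.66 and 0.864 CPM with Neurog2, 1.38 and 0.696 CPM with the mutant and 1.70 and 1.11 CPM with Ptf1a. Both copies were thus low in every group of 6 h, and the groups overlapped the controls except for tp63.L, which was lower with Neurog2 and higher with the mutant than in both controls without being called. At 25 h tp63.L stood at 212 and 184 CPM in the controls, 161 and 149 CPM with Neurog2, 215 and 184 CPM with the mutant and 146 and 152 CPM with Ptf1a. For tp63.S at 25 h the levels were 401 and 418 CPM in the controls, 284 and 252 CPM with Neurog2, 321 and 358 CPM with the mutant and 213 and 255 CPM with Ptf1a. Both copies were higher in the controls of 25 h than in those of 6 h, with log2 fold changes of 8.45 ± 0.30, adjusted p = 4.22e-09 for tp63.L and 8.45 ± 0.43, adjusted p = 2.42e-08 for tp63.S. With Ptf1a at 25 h both copies lay below both controls and were not called, with log2 fold changes of -0.41 ± 0.21, adjusted p = 0.1999 and -0.81 ± 0.31, adjusted p = 0.0884. With DESeq2 size factors tp63.S was called (-0.93 ± 0.30, adjusted p = 0.0445), as it was with the block within each time (-0.81 ± 0.20, adjusted p = 0.00691). A fit of the libraries of 25 h only also called tp63.S (-0.79 ± 0.19, adjusted p = 0.0204). DESeq2's Wald test called both copies, tp63.L with -0.53 ± 0.20, adjusted p = 0.0284 and tp63.S with -0.93 ± 0.32, adjusted p = 0.0169. With both copies summed tp63 was not called in edgeR (-0.67 ± 0.27, adjusted p = 0.0998). The Neurog2 caps also lay below both controls for both copies, at log2 fold changes of -0.36 ± 0.21, adjusted p = 0.605 and -0.61 ± 0.31, adjusted p = 0.489, and they overlapped the Ptf1a caps.

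Among the grainyhead-like genes, Grhl1 is known in Xenopus as a BMP-dependent activator of epidermal keratin genes, Grhl2 in the mouse as a regulator of epithelial junctions, and Grhl3 in the mouse for barrier formation and neural tube closure. The copies of grhl1 lie on chromosomes 5L (137974342 to 138002189) and 5S (118979855 to 119009636). At 25 h grhl1.L stood at 721 and 562 CPM in the controls, 614 and 462 CPM with Neurog2, 725 and 638 CPM with the mutant and 312 and 338 CPM with Ptf1a. The grhl1.S copy at 25 h stood at 511 and 413 CPM in the controls, 429 and 293 CPM with Neurog2, 507 and 409 CPM with the mutant and 159 and 175 CPM with Ptf1a. Both Ptf1a libraries lay below all 6 other libraries of 25 h for both copies. The log2 fold change with Ptf1a was -0.98 ± 0.22, adjusted p = 0.00912 for grhl1.L and -1.47 ± 0.37, adjusted p = 0.0151 for grhl1.S. The call of grhl1.L was lost without replicate 1 of the Ptf1a caps (-0.98, adjusted p = 0.0788) or 1 of the controls (-0.79, adjusted p = 0.0866), and that of grhl1.S without replicate 1 of the Ptf1a caps (-1.45, adjusted p = 0.0715), 2 of the Ptf1a caps (-1.54, adjusted p = 0.0630) or 1 of the controls (-1.30, adjusted p = 0.0900). At 6 h the grhl1.L levels were 85.9 and 107 CPM in the controls, 84.0 and 104 CPM with Neurog2, 76.2 and 101 CPM with the mutant and 73.9 and 87.0 CPM with Ptf1a, and the groups overlapped. For grhl1.S they were 71.9 and 43.0 CPM in the controls, 92.3 and 42.8 CPM with Neurog2, 75.6 and 51.5 CPM with the mutant and 80.6 and 57.7 CPM with Ptf1a, again with overlap. From 6 h to 25 h the controls rose by log2 fold changes of 2.74 ± 0.24, adjusted p = 1.03e-06 for grhl1.L and 3.01 ± 0.39, adjusted p = 3.09e-05 for grhl1.S.

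The grhl2 copies, on chromosomes 6L (132435253 to 132484389) and 6S (108755125 to 108813226), were per kilobase the least abundant of the family. At 6 h grhl2.L ran from 1.27 to 2.79 CPM and grhl2.S from 1.86 to 2.53 CPM over the 8 libraries. By 25 h grhl2.L stood at 13.8 and 18.24 CPM in the controls, 19.8 and 18.19 CPM with Neurog2, 14.2 and 28.9 CPM with the mutant and 24.0 and 22.4 CPM with Ptf1a. Levels of grhl2.S at 25 h were 14.4 and 19.3 CPM in the controls, 13.8 and 15.3 CPM with Neurog2, 10.9 and 22.2 CPM with the mutant and 10.2 and 14.5 CPM with Ptf1a. Both rose with time in the controls, by log2 fold changes of 3.08 ± 0.38, adjusted p = 2.01e-05 and 3.12 ± 0.35, adjusted p = 8.71e-06. With Ptf1a at 25 h neither was called and the signs of the 2 copies differed, with 0.53 ± 0.35, adjusted p = 0.325 for grhl2.L and -0.45 ± 0.32, adjusted p = 0.367 for grhl2.S.

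The copies of grhl3 lie on chromosome 2L (55247795 to 55263907) and on the unplaced Scaffold43 (1461247 to 1470919). At 6 h grhl3.L stood at 133 and 58.8 CPM in the controls, 158 and 60.5 CPM with Neurog2, 199 and 80.0 CPM with the mutant and 117 and 80.3 CPM with Ptf1a. The S copy at 6 h stood at 96.05 and 46.8 CPM in the controls, 126 and 52.8 CPM with Neurog2, 234 and 72.9 CPM with the mutant and 98.5 and 68.2 CPM with Ptf1a. In each group replicate 1 was the higher library for both copies, and all groups overlapped. At 25 h grhl3.L stood at 117 and 129 CPM in the controls, 95.5 and 79.9 CPM with Neurog2, 96.2 and 94.6 CPM with the mutant and 67.1 and 62.5 CPM with Ptf1a. The grhl3.S copy at 25 h stood at 464 and 467 CPM in the controls, 404 and 326 CPM with Neurog2, 481 and 394 CPM with the mutant and 422 and 298 CPM with Ptf1a. From 6 h to 25 h in the controls grhl3.S rose, with a log2 fold change of 2.70 ± 0.55, adjusted p = 0.00102, and grhl3.L was not called (0.36 ± 0.48, adjusted p = 0.541). With Ptf1a at 25 h neither copy was called, at log2 fold changes of -0.92 ± 0.49, adjusted p = 0.215 and -0.37 ± 0.51, adjusted p = 0.678, although both Ptf1a libraries lay below both controls for each copy. With both copies summed grhl3 was not called either (-0.47 ± 0.51, adjusted p = 0.574). In a fit of the libraries of 25 h only, grhl3.L was called (-0.91 ± 0.17, adjusted p = 0.00950), as it was with the block within each time (-0.93 ± 0.19, adjusted p = 0.00218). That block also called grhl3.S in the mutant caps of 6 h (0.99 ± 0.22, adjusted p = 0.0442).

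Dlx3 and Dlx5 are homeodomain proteins of the non-neural ectoderm; Dlx5 is also found at the border of the neural plate and, in the mouse, in forebrain inhibitory neurons. The dlx3 copies lie on chromosomes 9_10L (4782839 to 4791917) and 9_10S (4411850 to 4420177). At 6 h dlx3.L stood at 8.18 and 5.64 CPM in the controls, 17.2 and 9.27 CPM with Neurog2, 21.5 and 17.9 CPM with the mutant and 20.5 and 21.5 CPM with Ptf1a. All 6 libraries with an injected mRNA lay above both controls for this copy. The log2 fold change was 1.60 ± 0.32, adjusted p = 0.0363 with Ptf1a, 0.93 ± 0.32, adjusted p = 0.784 with Neurog2 and 1.51 ± 0.32, adjusted p = 0.0652 with the mutant. The Ptf1a call was lost without replicate 1 of the Ptf1a caps (1.64, adjusted p = 0.113), 2 of the Ptf1a caps (1.57, adjusted p = 0.189), 1 of the controls (1.90, adjusted p = 0.121) or 2 of the controls (1.36, adjusted p = 0.374). It was also lost with DESeq2 size factors (1.46, adjusted p = 0.0568), in a fit of the libraries of 6 h only (1.49, adjusted p = 0.182) and with both copies summed (1.16 ± 0.35, adjusted p = 0.270). For dlx3.S at 6 h the levels were 15.9 and 7.84 CPM in the controls, 22.5 and 9.84 CPM with Neurog2, 24.1 and 14.3 CPM with the mutant and 22.03 and 19.7 CPM with Ptf1a, and the Ptf1a libraries lay above both controls without a call (0.81 ± 0.40, adjusted p = 0.755).

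By 25 h dlx3.L stood at 337 and 285 CPM in the controls, 284 and 164 CPM with Neurog2, 256 and 267 CPM with the mutant and 82.9 and 107 CPM with Ptf1a. Levels of dlx3.S at 25 h were 433 and 436 CPM in the controls, 349 and 253 CPM with Neurog2, 340.0 and 394 CPM with the mutant and 127 and 161 CPM with Ptf1a. For both copies the 2 Ptf1a libraries were the lowest of the 8 of that time, and all libraries with Neurog2 or the mutant also lay below both controls. The log2 fold change with Ptf1a was -1.71 ± 0.32, adjusted p = 0.00286 for dlx3.L and -1.59 ± 0.40, adjusted p = 0.0145 for dlx3.S. With dlx3.L the call held in all 11 alternatives, with log2 fold changes from -1.91 to -1.59. That of dlx3.S was lost without replicate 1 of the Ptf1a caps (-1.47, adjusted p = 0.0848), 1 of the controls (-1.60, adjusted p = 0.0608) or 2 of the controls (-1.59, adjusted p = 0.0583). Neurog2 gave log2 fold changes of -0.47 ± 0.31, adjusted p = 0.668 and -0.53 ± 0.39, adjusted p = 0.728 and the mutant -0.25 ± 0.31, adjusted p = 1 and -0.24 ± 0.39, adjusted p = 1 for the L and S copies. In the controls dlx3 was higher at 25 h than at 6 h, by log2 fold changes of 5.49 ± 0.38, adjusted p = 1.7e-07 for dlx3.L and 5.19 ± 0.47, adjusted p = 1.35e-06 for dlx3.S.

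The dlx5 copies lie on chromosomes 6L (31422482 to 31427745) and 6S (26415485 to 26421095). At 6 h dlx5.L stood at 41.2 and 14.9 CPM in the controls, 76.9 and 37.4 CPM with Neurog2, 91.1 and 42.0 CPM with the mutant and 105 and 68.3 CPM with Ptf1a. The dlx5.S copy at 6 h stood at 46.6 and 19.9 CPM in the controls, 98.8 and 55.6 CPM with Neurog2, 66.3 and 49.5 CPM with the mutant and 92.8 and 84.0 CPM with Ptf1a. Both Ptf1a libraries lay above both controls for each copy, as did both mutant libraries. The Neurog2 libraries did so for dlx5.S and overlapped the controls for dlx5.L. Of all genes tested, 37.3% had the Ptf1a libraries of 6 h apart from the controls, in either direction, 28.9% the mutant and 25.8% the Neurog2 libraries. With Ptf1a neither copy was called, at log2 fold changes of 1.62 ± 0.50, adjusted p = 0.276 and 1.41 ± 0.42, adjusted p = 0.253. With Neurog2 the values were 1.02 ± 0.49, adjusted p = 1 and 1.21 ± 0.42, adjusted p = 0.829, and with the mutant 1.24 ± 0.50, adjusted p = 0.595 and 0.80 ± 0.42, adjusted p = 0.895. Replicate 1 was the higher library in each of these groups for both copies. With the replicate number as a block within each time, the copies called higher with Ptf1a included dlx5.L (1.77 ± 0.22, adjusted p = 0.000539) and dlx5.S (1.53 ± 0.30, adjusted p = 0.0208). In that fit dlx5.L was also higher in the Neurog2 caps (1.09 ± 0.22, adjusted p = 0.0459) and the mutant caps (1.301 ± 0.22, adjusted p = 0.00678). At 25 h dlx5.L stood at 178 and 209 CPM in the controls, 173 and 146 CPM with Neurog2, 150.4 and 221 CPM with the mutant and 48.2 and 67.7 CPM with Ptf1a. For dlx5.S at 25 h the levels were 83.3 and 94.8 CPM in the controls, 89.3 and 68.8 CPM with Neurog2, 72.9 and 115 CPM with the mutant and 22.8 and 43.4 CPM with Ptf1a. The Ptf1a libraries were again the lowest 2 of 8 for both copies, the mutant libraries spanned the controls, and with Neurog2 dlx5.L lay below both controls while dlx5.S overlapped them. Log2 fold changes with Ptf1a were -1.74 ± 0.50, adjusted p = 0.0287 for dlx5.L and -1.43 ± 0.42, adjusted p = 0.0323 for dlx5.S. The call of dlx5.L was lost without replicate 1 of the Ptf1a caps (-1.56, adjusted p = 0.141), 2 of the Ptf1a caps (-2.01, adjusted p = 0.0731), 1 of the controls (-1.85, adjusted p = 0.0756) or 2 of the controls (-1.62, adjusted p = 0.112), and when no filter removed low counts (-1.72, adjusted p = 0.0580). That of dlx5.S was lost without replicate 1 of the Ptf1a caps (-1.08, adjusted p = 0.178), 1 of the controls (-1.52, adjusted p = 0.0876) or 2 of the controls (-1.33, adjusted p = 0.1251). With time the controls rose by 2.78 ± 0.52, adjusted p = 0.000579 for dlx5.L and 1.42 ± 0.42, adjusted p = 0.0119 for dlx5.S, and the latter was lost without replicate 2 of the controls of 6 h (0.93, adjusted p = 0.101) or 2 of the controls of 25 h (1.32, adjusted p = 0.05001).

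Tfap2a is required in Xenopus for epidermal gene expression and for the neural crest, and in the mouse retina Tfap2a and Tfap2b act downstream of Ptf1a in amacrine cells. The tfap2a copies lie on chromosomes 6L (88807331 to 88821402) and 6S (62514137 to 62530271). At 25 h tfap2a.L stood at 114 and 138 CPM in the controls, 118 and 129.6 CPM with Neurog2, 124 and 144 CPM with the mutant and 254 and 307 CPM with Ptf1a. Levels of tfap2a.S at 25 h were 63.1 and 80.3 CPM in the controls, 70.12 and 76.7 CPM with Neurog2, 87.6 and 94.7 CPM with the mutant and 133 and 161 CPM with Ptf1a. The Ptf1a libraries were the highest 2 of the 8 for both copies. The log2 fold changes with Ptf1a, 1.16 ± 0.39, adjusted p = 0.0551 for tfap2a.L and 1.03 ± 0.56, adjusted p = 0.227 for tfap2a.S, did not pass. With the replicate block tfap2a.L was called (1.16 ± 0.35, adjusted p = 0.0283), as it was in a fit of the libraries of 25 h only (1.18 ± 0.21, adjusted p = 0.00658), where tfap2a.S passed too (1.05 ± 0.21, adjusted p = 0.00983). With the block within each time both passed as well, tfap2a.L with 1.16 ± 0.15, adjusted p = 8.15e-05 and tfap2a.S with 1.04 ± 0.19, adjusted p = 0.000925. DESeq2's Wald test called tfap2a.L (1.04 ± 0.40, adjusted p = 0.0368). With both copies summed tfap2a was not called in edgeR (1.11 ± 0.45, adjusted p = 0.102). At 6 h tfap2a.L stood at 241.7 and 124 CPM in the controls, 308 and 159 CPM with Neurog2, 273 and 143 CPM with the mutant and 258 and 173 CPM with Ptf1a. The tfap2a.S levels at 6 h were 142 and 47.6 CPM in the controls, 190.5 and 64.9 CPM with Neurog2, 181 and 76.3 CPM with the mutant and 166 and 99.2 CPM with Ptf1a, and the groups overlapped for both copies. With time tfap2a was not called in the controls, at log2 fold changes of -0.54 ± 0.39, adjusted p = 0.245 and -0.40 ± 0.55, adjusted p = 0.551. With the block within each time both copies were lower at 25 h, tfap2a.L with -1.01 ± 0.16, adjusted p = 0.0001005 and tfap2a.S with -0.96 ± 0.21, adjusted p = 0.00108.

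Tfap2b is an AP-2 factor of neural crest derivatives and of some neurons. Its copies lie on chromosomes 5L (150153918 to 150177226) and 5S (129413459 to 129436821). At 25 h tfap2b.L stood at 0.357 and 0 CPM in the controls, 0.471 and 0.0952 CPM with Neurog2, 0.875 and 0.295 CPM with the mutant and 24.7 and 40.3 CPM with Ptf1a. The value above 0 in the controls came from 19 counts, all in replicate 1. For tfap2b.S at 25 h the levels were 1.73 and 1.59 CPM in the controls, 5.14 and 3.59 CPM with Neurog2, 3.86 and 3.93 CPM with the mutant and 56.1 and 87.3 CPM with Ptf1a. With Ptf1a both copies lay far above every other library of that time. Log2 fold changes were 7.28 ± 1.18, adjusted p = 0.00172 for tfap2b.L and 5.43 ± 0.52, adjusted p = 0.000126 for tfap2b.S, which is 43.1-fold. Both calls held in all 11 alternatives, with tfap2b.S between 5.07 and 5.81 and tfap2b.L between 5.81 and 14.27; the upper end for tfap2b.L comes from the fit without replicate 1 of the controls, where the remaining control library held no counts and the fitted value depends on the prior count. With Neurog2 and the mutant, tfap2b.S also lay above both controls, at log2 fold changes of 1.39 ± 0.45, adjusted p = 0.158 and 1.23 ± 0.45, adjusted p = 0.356, and was not called. With the block within each time it was called with Neurog2 (1.39 ± 0.34, adjusted p = 0.0276).

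At 6 h tfap2b was near the limit of detection. The tfap2b.S levels were 0.145 and 0.0466 CPM in the controls, 0.270 and 0.0480 CPM with Neurog2, 0.309 and 0.224 CPM with the mutant and 0.621 and 0.634 CPM with Ptf1a, and both Ptf1a libraries were the highest of the 8. Its log2 fold change with Ptf1a was 2.61 ± 0.57, adjusted p = 0.0597, and with the replicate block it was 2.62 ± 0.54, adjusted p = 0.0350. It was also called with the block within each time (2.65 ± 0.51, adjusted p = 0.0136) and with no filter on low counts (2.67 ± 0.55, adjusted p = 0.0264). DESeq2's Wald test called it (2.47 ± 0.57, adjusted p = 0.00141), as did edgeR with both copies summed (2.86 ± 0.59, adjusted p = 0.0440). With DESeq2 size factors, or the libraries of 6 h only, it was not called. Counts of tfap2b.L at 6 h were 0 in both controls, 1 and 0 in the Neurog2 caps, 4 and 0 in the mutant caps and 32 and 15 in the Ptf1a caps. Against a floor of 3 counts over the 2 control libraries the level with Ptf1a was at least 4.40-fold higher. Against Neurog2 the ratio was 13.6, with an exact 95% interval of 2.33 to 549. Reads carry no molecular identifiers, so interval and floor cover counting error only. From 6 h to 25 h in the controls tfap2b.S rose by a log2 fold change of 4.01 ± 0.58, adjusted p = 7.11e-05. The tfap2b.L copy was called as well (adjusted p = 0.0232) and was at least 8.50-fold higher at 25 h over both libraries, but replicate 2 of the controls of 25 h held 0 counts, as did both controls of 6 h. That call was lost without replicate 1 of the controls of 6 h (adjusted p = 0.0966), without replicate 2 of them (adjusted p = 0.0665) and without replicate 1 of the controls of 25 h, where no count remained.

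Tfap2c is an AP-2 factor of the epidermis and of the neural plate border. Its copies lie on chromosomes 9_10L (13524842 to 13539184) and 9_10S (12195302 to 12216860). At 25 h tfap2c.L stood at 279.7 and 304 CPM in the controls, 359.6 and 331 CPM with Neurog2, 358 and 382 CPM with the mutant and 200.3 and 399 CPM with Ptf1a. The tfap2c.S copy at 25 h stood at 495 and 512 CPM in the controls, 489.9 and 535 CPM with Neurog2, 552 and 617 CPM with the mutant and 174 and 445 CPM with Ptf1a. The 2 Ptf1a libraries differed from each other more than those of any other group of 25 h, for both copies. With Ptf1a tfap2c.L overlapped the controls (0.04 ± 0.35, adjusted p = 0.966), and tfap2c.S lay below both controls without a call (-0.70 ± 0.34, adjusted p = 0.178). Without replicate 2 of the Ptf1a caps, tfap2c.S was called against the control, with a log2 fold change of -1.54, adjusted p = 0.00563. It was also called with the block within each time (-0.79 ± 0.28, adjusted p = 0.0420). With both copies summed tfap2c was not called in edgeR (-0.39 ± 0.33, adjusted p = 0.464). At 6 h tfap2c.L stood at 106 and 54.1 CPM in the controls, 164 and 99.5 CPM with Neurog2, 94.5 and 76.5 CPM with the mutant and 122 and 107 CPM with Ptf1a. Levels of tfap2c.S at 6 h were 257 and 173 CPM in the controls, 332 and 239 CPM with Neurog2, 189 and 192 CPM with the mutant and 287 and 269 CPM with Ptf1a. Neither copy was called at 6 h, and the controls spanned a wide range. In the controls tfap2c.L rose with time by 1.86 ± 0.36, adjusted p = 0.000769 and tfap2c.S by 1.23 ± 0.35, adjusted p = 0.00871, the latter not without replicate 2 of the controls of 6 h (0.97, adjusted p = 0.0793).

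The caps with Ptf1a were also compared with those of the mutant and of Neurog2. Against the mutant at 25 h, 2 copies were higher, where 4.40% of all genes were higher, and 4 were lower, where 3.81% were lower. The lower copies were grhl1.L (-1.07 ± 0.23, adjusted p = 0.0148), grhl1.S (-1.45 ± 0.37, adjusted p = 0.0328), dlx3.L (-1.46 ± 0.31, adjusted p = 0.0163) and dlx5.S (-1.50 ± 0.42, adjusted p = 0.0489), and the higher ones tfap2b.L (5.83 ± 1.09, adjusted p = 0.0102) and tfap2b.S (4.201 ± 0.49, adjusted p = 0.000837). With the replicate block dlx3.S (-1.34 ± 0.34, adjusted p = 0.0213) and dlx5.L (-1.68 ± 0.46, adjusted p = 0.0301) were called as well. In this comparison 5 calls were lost in at least 1 fit with a library left out, which leaves 1 library in that group. That of grhl1.L was lost without replicate 1 of the Ptf1a caps (-1.01, adjusted p = 0.137), 1 of the mutant caps (-0.97, adjusted p = 0.0585) or 2 of the mutant caps (-1.16, adjusted p = 0.0646). For grhl1.S the call was lost without replicate 1 of the Ptf1a caps (-1.38, adjusted p = 0.156), 2 of the Ptf1a caps (-1.52, adjusted p = 0.103), 1 of the mutant caps (-1.29, adjusted p = 0.112) or 2 of the mutant caps (-1.60, adjusted p = 0.101). For dlx3.L it was lost without replicate 1 of the Ptf1a caps (-1.29, adjusted p = 0.1252) or 2 of the mutant caps (-1.43, adjusted p = 0.0912). For dlx5.S it was lost without replicate 1 of the Ptf1a caps (-1.12, adjusted p = 0.257), 2 of the Ptf1a caps (-2.04, adjusted p = 0.0502), 1 of the mutant caps (-1.80, adjusted p = 0.0530) or 2 of the mutant caps (-1.14, adjusted p = 0.281), and when no filter removed low counts (-1.49, adjusted p = 0.0697). For tfap2b.L it was lost without replicate 2 of the mutant caps (5.21, adjusted p = 0.103). The tfap2c.S copy was called without replicate 2 of the Ptf1a caps (-1.75, adjusted p = 0.0109), with DESeq2's Wald test (-0.98 ± 0.36, adjusted p = 0.0405) and with the block within each time (-1.001 ± 0.28, adjusted p = 0.0214). The block within each time called 12 copies, which also included dlx3.S, dlx5.L, grhl3.L (-0.56 ± 0.19, adjusted p = 0.0486), tfap2a.L (1.06 ± 0.15, adjusted p = 0.000358) and tfap2a.S (0.68 ± 0.19, adjusted p = 0.0180). The count of 6 became 2 without replicate 1 of the Ptf1a caps, 3 without replicate 1 and 1 without replicate 2 of the mutant caps.

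Against Neurog2 at 25 h, 2 copies were higher, where 5.13% of all genes were higher, and 1 was lower, where 4.19% were lower. These were tfap2b.L (6.80 ± 1.14, adjusted p = 0.00471), tfap2b.S (4.04 ± 0.48, adjusted p = 0.000763) and dlx3.L (-1.24 ± 0.31, adjusted p = 0.0284). The call of dlx3.L was lost without replicate 1 of the Ptf1a caps (-1.04, adjusted p = 0.175), 2 of the Ptf1a caps (-1.43, adjusted p = 0.0704) or 1 of the Neurog2 caps (-0.79, adjusted p = 0.240), and with both copies summed (-1.14 ± 0.35, adjusted p = 0.0648). With the replicate block 6 copies were called, 3 in each direction. The 3 added were grhl1.L (-0.73 ± 0.22, adjusted p = 0.0438), grhl1.S (-1.05 ± 0.24, adjusted p = 0.0113) and tfap2a.L (1.19 ± 0.35, adjusted p = 0.0396). With the block within each time 10 copies were called, which added dlx3.S (-1.07 ± 0.23, adjusted p = 0.00551), dlx5.L (-1.49 ± 0.22, adjusted p = 0.000383), dlx5.S (-1.33 ± 0.30, adjusted p = 0.00794) and tfap2a.S (0.99 ± 0.19, adjusted p = 0.00210) to these 6. The tfap2c.S copy was called without replicate 2 of the Ptf1a caps (-1.56, adjusted p = 0.0139). At 6 h 0 copies were called between any of the 3 mRNAs in edgeR. The share of all genes called at 6 h, in either direction, was 0.0329% for Ptf1a against the mutant, 0.138% for Ptf1a against Neurog2 and 0.0132% for the mutant against Neurog2. At an unadjusted p under 0.05, 1, 2 and 1 copies passed in these comparisons, where 1.65%, 2.77% and 2.36% of all genes passed. DESeq2 called 0 copies in each. Between the mutant and Neurog2 at 25 h 0 copies were called in edgeR, where 0.00987% of all genes were, and 0 in DESeq2. At an unadjusted p under 0.05, 0 copies and 4.29% of all genes passed.

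The effect of Ptf1a against the control was set against itself between 25 h and 6 h. This difference was called for 5 copies: 4 had a lower effect at 25 h, where 5.34% of all genes had, and 1 a higher, where 4.47% had. For dlx3.L the effect went from 1.60 ± 0.32 at 6 h to -1.71 ± 0.32 at 25 h, a difference of -3.31 ± 0.45, adjusted p = 0.00165, which was called in all 14 alternatives. For dlx3.S the difference was -2.40 ± 0.56, adjusted p = 0.0202. It was lost without replicate 1 of the Ptf1a caps of 6 h (-2.32, adjusted p = 0.0594), 2 of the controls of 6 h (-1.99, adjusted p = 0.0715), 1 of the Ptf1a caps of 25 h (-2.19, adjusted p = 0.0743), 1 of the controls of 25 h (-2.41, adjusted p = 0.0573) or 2 of the controls of 25 h (-2.40, adjusted p = 0.0563). The effect on dlx5.L went from 1.62 ± 0.50 to -1.74 ± 0.50, a difference of -3.36 ± 0.71, adjusted p = 0.0129, lost without replicate 1 of the Ptf1a caps of 25 h (-3.08, adjusted p = 0.0538). For dlx5.S the difference was -2.84 ± 0.60, adjusted p = 0.0129, lost without replicate 1 of the Ptf1a caps of 25 h (-2.39, adjusted p = 0.0502). Of the 5 calls 1 was left without replicate 1 of the Ptf1a caps of 25 h, and 3 without replicate 1 of the Ptf1a caps of 6 h or without either control of 25 h. All 4 dlx copies thus had a positive fitted effect at 6 h and a negative one at 25 h, and of the effects at 6 h that on dlx3.L was called without a block and those on dlx3.L, dlx5.L and dlx5.S with the block within each time. With both copies summed, Neurog2 also had positive uncalled effects at 6 h on dlx3 (0.65 ± 0.35) and dlx5 (1.13 ± 0.44). So did the mutant (1.05 ± 0.35 and 1.02 ± 0.44). At 25 h the summed effects were -0.50 and -0.24 with Neurog2 and -0.25 and -0.02 with the mutant, also uncalled. For tfap2b.S the effect was larger at 25 h, by 2.82 ± 0.78, adjusted p = 0.0400. It was lost without replicate 1 of the Ptf1a caps of 6 h (2.81, adjusted p = 0.0972), 2 of the Ptf1a caps of 6 h (2.84, adjusted p = 0.0891), 1 of the controls of 6 h (1.72, adjusted p = 0.465), 1 of the Ptf1a caps of 25 h (3.15, adjusted p = 0.0567), 2 of the Ptf1a caps of 25 h (2.45, adjusted p = 0.112), 1 of the controls of 25 h (2.88, adjusted p = 0.0974) or 2 of the controls of 25 h (2.76, adjusted p = 0.101). With the replicate block grhl1.S was called as well (-1.72 ± 0.33, adjusted p = 0.00580), and tfap2c.S was called without replicate 2 of the Ptf1a caps of 25 h (-1.91, adjusted p = 0.0113). The block within each time called 11 differences, among them tp63.S (-1.05 ± 0.32, adjusted p = 0.0295), grhl1.L (-0.71 ± 0.22, adjusted p = 0.0359), grhl3.L (-1.08 ± 0.27, adjusted p = 0.0113) and tfap2a.L (0.87 ± 0.20, adjusted p = 0.00882), along with grhl1.S and tfap2c.S. For Neurog2 and the mutant 0 of the 18 differences were called in edgeR without a block, where 0.296% and 0.194% of all genes were called. At an unadjusted p under 0.05, 2 and 1 copies passed, where 9.08% and 8.09% of all genes passed. DESeq2 called 0 and 1 copies, the latter dlx3.L. With the block within each time 2 differences, those of dlx3.L and dlx5.L, were called for the mutant.

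The share of the L copy in the counts of a pair showed how alike the copies behaved. For grhl3 this share was 46.0 to 58.0% over the 8 libraries of 6 h and 13.7 to 21.6% over those of 25 h, in every group without overlap between the times. For dlx5 it went the other way, from 40.2 to 57.9% at 6 h to 60.9 to 68.8% at 25 h, also without overlap. The L share of tfap2c at 25 h was 53.6 and 47.3% with Ptf1a, against 36.1 and 37.2% in the controls, 42.3 and 38.2% with Neurog2 and 39.3 and 38.2% with the mutant. For tfap2c the Ptf1a libraries thus lay above all others of that time, although they differed from each other in level. This was not particular to tfap2c: the L shares of grhl1, grhl2, tfap2a and tfap2b at 25 h were also highest in the Ptf1a libraries. The tfap2b shares outside the Ptf1a caps rest on few counts of the L copy. For tp63, grhl3, dlx3 and dlx5 the Ptf1a libraries of 25 h overlapped the others. For dlx3 the share stayed between 34.0 and 55.6% over all 16 libraries, and for tfap2a between 58.6 and 72.3%. These shares are given as a description; the treatment of reads that fit both copies is not given in the sources used here, and such reads would move the shares.

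**Figure D3:**
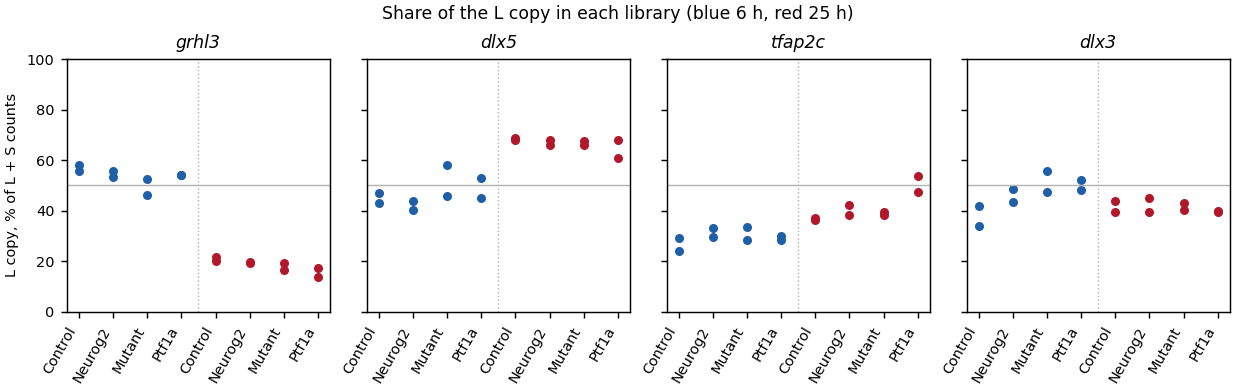
Counts of the L copy as a percentage of the L and S counts, for grhl3, dlx5, tfap2c and dlx3. There is 1 point per library, in blue at 6 h and in red at 25 h, and the grey line marks equal shares. The share of grhl3.L lies lower in every library of 25 h than in any of 6 h, and that of dlx5.L higher. The share of tfap2c.L is highest in the 2 Ptf1a libraries of 25 h, and that of dlx3.L runs from 34.0 to 55.6%.

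Markers of cell types that arise from the ectoderm moved with Ptf1a at 25 h beside the regulators. Over all genes tested 11.9% were called higher and 8.62% lower in this comparison. The keratin list held 16 tested copies, of which 2 rose and 3 fell with Ptf1a, and its summed level was 58574 to 79546 CPM with Ptf1a, 95013 to 98584 with Neurog2, 98518 to 133156 with the mutant and 118792 to 135058 CPM in the controls; krt5.6.S was at 0 in the controls. The keratin krt12.L fell most, with 598 ± 41.4 against 2176 ± 397 CPM (-1.86 ± 0.27, adjusted p = 0.000737), and krt19.S rose most, with 515 ± 126 against 75.0 ± 7.98 CPM (2.78 ± 0.26, adjusted p = 0.000109). In the mutant caps of 25 h krt19.S was called higher too, with 336 ± 113 CPM (2.16 ± 0.25, adjusted p = 0.00355). Of 26 multiciliated cell copies 16 fell and 0 rose with Ptf1a, and their sum was 362 to 391 CPM against 1559 to 1695 CPM in the controls. Of 16 copies of ionocytes and small secretory cells 10 fell and 0 rose, with sums of 409.9 to 714 and 1841 to 2314 CPM. Neither of these 2 lists had a copy at 0 in these groups. Of 24 neuronal and neural plate copies 21 rose and 0 fell, with sums of 1199 to 1347 CPM with Ptf1a, 778 to 2624 with Neurog2, 309.9 to 1056 with the mutant and 56.7 to 65.2 CPM in the controls, where the neuronal stmn2.L was at 0. Of 14 neural crest copies 12 rose and 0 fell, with sums of 258 to 285 CPM with Ptf1a, 33.0 to 39.5 with Neurog2, 47.6 to 51.6 with the mutant and 34.7 to 40.9 CPM in the controls, where the crest factor foxd3.L was at 0. Epidermal and crest sums thus set the Ptf1a caps apart from all others of 25 h. Both copies of dlx3, dlx5, grhl1, tfap2a and tfap2b did so too, as did grhl3.L and tfap2c.S. Libraries that lie apart were common over all genes tested, in either direction. The Ptf1a libraries lay apart from the controls for 60.1% of genes, from the mutant for 51.3% and from Neurog2 for 52.3%. The share apart from all of these at once is not given here. Of these regulators the tfap2a copies, grhl3.L and tfap2c.S were not called against the control. The neuronal sum lay above both controls with all 3 mRNAs. The part of these cell types in the levels of the regulators was not tested.

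**Figure D4:**
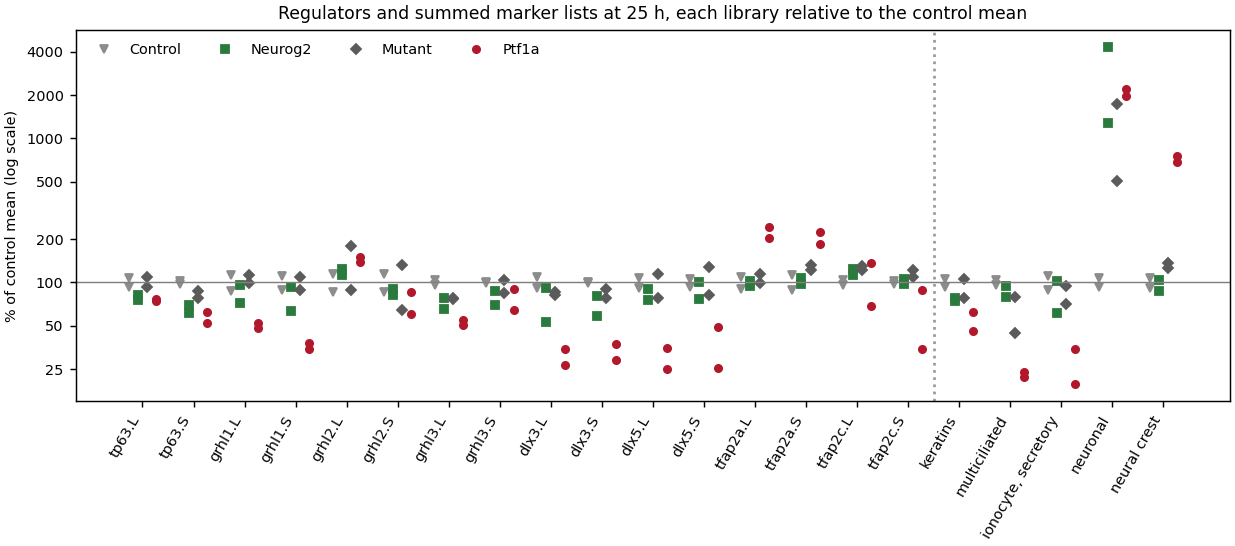
Level in each library of 25 h as a percentage of the mean of the 2 controls, on a log scale, for 16 copies of the regulators (left of the dotted line; tfap2b, with few or no counts in the controls, is left out) and for the sums of 5 marker lists (right). With Ptf1a the dlx3, dlx5 and grhl1 copies and the keratin, multiciliated and ionocyte sums lie below the controls, the tfap2a copies and the neuronal and crest sums above them.

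Other genes of the same network were counted from lists, to be read against the same 11.9% and 8.62% of all genes. Among 15 tested copies of relatives of the 9 genes, 2 rose and 5 fell in the Ptf1a caps of 25 h, with a median log2 fold change of -0.80. The rise was in a further AP-2 gene: tfap2e.S stood at 4.70 and 6.75 CPM against 0.564 and 0.558 CPM in the controls (3.35 ± 0.59, adjusted p = 0.00216), and tfap2e.L at 1.90 and 4.56 against 0.564 and 0.398 CPM (2.73 ± 0.77, adjusted p = 0.0256). The falls were in dlx2.S, at 26.5 and 38.1 against 92.9 and 84.7 CPM (-1.46 ± 0.43, adjusted p = 0.0299), dlx2.L (-1.40 ± 0.36, adjusted p = 0.0167), dlx4.S (-1.33 ± 0.39, adjusted p = 0.0296), and the CP2-family genes tfcp2.L (-0.89 ± 0.18, adjusted p = 0.00452) and tfcp2l1.S (-1.39 ± 0.24, adjusted p = 0.00172). At 6 h dlx6.S, a homeobox gene that neighbours dlx5 in vertebrate genomes, stood at 22.4 and 16.1 CPM in the controls, 73.9 and 53.4 CPM in the Neurog2 caps, 53.0 and 39.6 CPM in the mutant caps and 62.7 and 55.1 CPM in the Ptf1a caps. It was called in the Ptf1a caps (1.61 ± 0.26, adjusted p = 0.00943) and the Neurog2 caps (1.72 ± 0.26, adjusted p = 0.0148) and not in the mutant caps (1.27 ± 0.26, adjusted p = 0.0516). These relatives, except tfap2e.S and dlx2.S, were picked out after their values were seen.

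Of 49 copies in the list of non-neural ectoderm and BMP response genes, 3 rose and 15 fell in the Ptf1a caps of 25 h, with a median log2 fold change of -1.33. The BMP target ventx1.2.L had the largest fall, with 0.0559 ± 0.0139 against 0.899 ± 0.483 CPM (-3.98 ± 1.19, adjusted p = 0.0336), and the forkhead gene foxi2.S the largest rise, with 14.5 ± 1.96 against 0.295 ± 0.258 CPM (5.79 ± 0.67, adjusted p = 0.000255). Of 69 copies of epithelial junction, adhesion and envelope genes 7 rose and 15 fell, with a median of -0.45, so that the share called higher lay under that of all genes. The hyaluronan synthase gene has1.S fell most, with 175 ± 83.0 against 1053 ± 247 CPM (-2.59 ± 0.32, adjusted p = 0.000310). Of 33 copies of neural plate border and neural crest genes that act with the AP-2 and Dlx factors 22 rose and 1 fell, with a median of 2.73. The fall was in pax7.S, with 1.23 ± 0.516 against 4.73 ± 0.0709 CPM (-1.94 ± 0.57, adjusted p = 0.0300), and the largest rise in foxd3.L, with 4.90 ± 0.189 CPM against 0 in both controls (adjusted p = 0.000265). The median over all genes in this comparison was 0.08. In the Neurog2 caps of 25 h, where 3.08% of all genes were called, 1 of the 49 copies of the ectoderm list fell, 2 of the 33 of the border list rose and 1 of the 69 of the junction list rose. The last was dst.L, the gene of a cytoskeletal linker, with 36.3 ± 23.4 against 3.27 ± 1.14 CPM (3.45 ± 0.58, adjusted p = 0.00888). In the controls cldn1.L, a tight junction gene, rose most of the junction list between the times, with 600.2 ± 59.7 against 0.285 ± 0.00665 CPM (11.03 ± 0.55, adjusted p = 2.15e-08), and bmp7.1.S, a BMP ligand gene, most of the ectoderm list, with 157 ± 23.7 against 0.353 ± 0.137 CPM (8.75 ± 0.39, adjusted p = 9.87e-09).

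The genes whose levels ran most like those of 4 of the regulators were sought by Pearson's correlation of mean log2(CPM + 0.5) over the 8 groups, among 16066 other genes with a symbol. The groups share the contrast between the times, which dominates these correlations, and they are given as a description. For tp63.L they were axl.L, ube2n.S and pqlc3.L, and axl.L, a receptor tyrosine kinase gene, went from 0.407 ± 0.378 CPM to 155 ± 28.4 CPM in the controls (r = 0.9997). For dlx3.L they were the claudin gene cldn4.L (r = 0.998), selt.S and net1.S; its level in the controls was 236 ± 30.2 CPM at 6 h against 1489 ± 179 CPM at 25 h, and with Ptf1a 383 ± 63.4 against 823 ± 166 CPM. For tfap2a.L they included trub1.L (r = 0.985) and the Notch receptor gene notch3.S. For grhl3.L they were akap9.S (r = 0.955), cryz.L and ankrd24.L, the lowest likeness of the 4.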

How the data were processed

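Both copies of the 9 genes, and every gene list, were chosen with earlier results of these data known. The authors deposited 1 table of raw counts per library, from CASAVA 1.8, STAR 2.5, featureCounts and DESeq2 1.8 per the submitters' processing notes. Strandedness, and the treatment of reads that fit both copies, are not given in the sources used here. Genome build 9.1 with annotation 1.8.3.1 is named in the headers of the deposited annotation, which gave the coordinates and transcript lengths. The title of that annotation carries a later version number than its headers do.

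Counts were fitted with edgeR 4.0.16 in R 4.3.3 (limma 3.58.1): filterByExpr, TMM scaling, robust quasi-likelihood fits with 1 coefficient per group in all 16 libraries (8 residual degrees of freedom), and Benjamini-Hochberg adjustment over 30384 genes. SEs are on the log2 scale. For edgeR they were derived from the test, as the absolute log2 fold change divided by the square root of the F statistic. Those of DESeq2's Wald test are the ones that it estimates. Log2 fold changes use a prior count of 0.125. The script was tested on simulated data: with 200 genes changed in the comparison of Ptf1a with the control at 25 h, 65.5% were recovered over 30384 genes. Of the calls made there, 4.38% were false. The changed genes had a mean above 1 CPM, and the libraries were simulated as independent, without the pairing given below. The planted change was larger than that of any copy but tfap2b in this comparison. The share recovered is thus no measure of power for these copies.

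Alternatives were DESeq2 size factors, no filter on low counts, DESeq2 1.42.0 (Wald test), the libraries of 1 time only, both copies summed, each library left out in turn (the lone library left in a group is assumed to vary like the other groups) and the replicate number as a block, across or within times. Deviations of libraries with the same number correlated by r = 0.110 to 0.834 over all 28 pairs of groups. Between groups of 6 h r was 0.737 to 0.834, between groups of 25 h 0.129 to 0.522 and across times 0.110 to 0.224. The fits with a block take the numbers to pair the libraries, and the labels do not say what they mark. Calls given without a named alternative come from the fit without a block and ignore this pairing. Replicates of a group differed beyond sampling noise (chi-square divided by its degrees of freedom, 40.6 to 159). 

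All 18 copies are named. Of each list, at most the called gene with the largest rise and that with the largest fall per comparison is named (of the relatives of the 9 genes, 6 more copies were named after their values were seen), and for 4 copies the 3 genes most alike, of which 1 is not reported here. Lists covered non-neural ectoderm and BMP response, epithelial junctions, border and crest partners, relatives of the 9 genes, and markers of keratinised epidermis, multiciliated cells, ionocytes, neurons, neural crest, mesoderm, endoderm, blood and pluripotency. Symbols matched RefSeq for 17 of 18 copies.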

Additional observations from a re-analysis of the deposited data

Results flagged for a closer look

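For 5 copies the effect of Ptf1a against the control differed between 6 h and 25 h, by edgeR's test of the difference itself. The difference, 25 h minus 6 h on the log2 scale, was -3.31 for dlx3.L, -2.40 for dlx3.S, -3.36 for dlx5.L, -2.84 for dlx5.S and 2.82 for tfap2b.S. The 2 libraries of each mRNA and time do not allow a search for single libraries that stand apart within a group.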

How the results depend on the processing

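No called value changed direction under the alternatives run, whereas some values that were not called did. The count of called copies moved by over 1.5 times as follows. These counts have no share of all genes beside them, since the shares given above belong to the main fit without a block. For Ptf1a against the control at 6 h, 1 call became 0 with DESeq2 size factors or the libraries of that time only, 2 with no filter, the replicate block or DESeq2's Wald test, and 4 with the replicate block within each time. For the mutant at 6 h, 0 became 1 with no filter, the block or the Wald test, and 3 with the block within each time. For Neurog2, 0 became 1 with the block within each time at 6 h and at 25 h, and 1 with the Wald test at 25 h. For Ptf1a at 25 h, 8 became 13 with the block within each time. Against the mutant at 25 h 6 became 12, and the differences between the times went from 5 to 11, with that block. Against Neurog2 at 25 h, 3 became 6 with the block, 10 with the block within each time, 8 with the libraries of 25 h only and 9 with the Wald test. For the mutant's difference between the times, 0 became 2 with the block within each time and 1 with the Wald test.

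With 1 library left out, the count ran from 0 to 0 for Ptf1a at 6 h, from 3 to 7 for Ptf1a at 25 h, from 1 to 5 against the mutant, from 2 to 3 against Neurog2, from 12 to 14 for the time course of the controls and from 1 to 5 for the differences between the times, and stayed at 0 elsewhere. The replicate block ended no call. Among single copies, 3156 values kept their side of the threshold, 94 gained a call and 62 lost one; each call lost without a library is given beside the copy. Depth limits tfap2b.L most, with 0 to 4 counts in every library of 6 h other than those with Ptf1a.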

Other observations

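The marker lists of mesoderm, endoderm, blood and pluripotency, which lie outside the epidermal programme, were read for the same libraries, beside 11.9% of all genes called higher and 8.62% lower with Ptf1a at 25 h. Of 18 tested mesoderm copies 1 rose and 2 fell in the Ptf1a caps of 25 h. The sum over all 24 listed copies, tested or not, was 34.4 to 43.8 CPM against 42.7 to 70.6 CPM in the controls. Of 19 tested endoderm copies 2 rose and 5 fell. The sum over all 24 listed copies was 631 to 854 CPM with Ptf1a, 322 to 358 CPM with Neurog2, 964 to 2128 CPM with the mutant and 105 to 121 CPM in the controls. Most of it came from a2m.S, a protease inhibitor gene, which rose with the mutant, with 1539 ± 823 against 103 ± 9.53 CPM (3.90 ± 0.47, adjusted p = 0.00419). Of 5 tested blood copies 0 were called in edgeR. The sum over all 17 listed copies was 0.877 to 1.32 CPM with Ptf1a and 1.91 to 2.14 CPM in the controls. Of 19 pluripotency copies 1 rose and 3 fell, with sums of 449 to 615 and 467 to 542 CPM.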
